A study of Mus musculus with 8 samples.

Results

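The genes of 3 fibroblast growth factor (FGF) receptors, Fgfr1, Fgfr2 and Fgfr3, and of 3 FGF feedback inhibitors, Spry1, Spry2 and Dusp6, were examined for OTX2 peaks. OTX2, the protein precipitated, belongs to the homeodomain transcription factors and acts in the developing forebrain and midbrain. A peak of any of the 8 libraries was counted at a gene when its centre lay within 200 kb of a fixed gene position in the mouse build mm9. These positions were chromosome 8 at 26650000 for Fgfr1, chromosome 7 at 137360000 for Fgfr2, chromosome 5 at 34065000 for Fgfr3, chromosome 3 at 37540000 for Spry1, chromosome 14 at 106293000 for Spry2 and chromosome 10 at 98727000 for Dusp6. They mark each gene approximately and are not its start site. In all, 69 of 26317 deposited peaks lay at the 6 genes, of which 68 came from OTX2 libraries, 1 from an input library and 0 from IgG libraries. The OTX2 libraries had far more peaks in total. As a share of its own library's peaks, this was 0.487%, 0.616% and 0.228% for OTX2 replicates 1, 2 and 3. The single input peak was 0.725% of the 138 peaks of input replicate 1.

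Chromatin immunoprecipitation with sequencing had been performed on the basal ganglia primordia and septum of wildtype CD-1 mouse embryos at stage E12.5, with tissue of several embryos pooled in each sample. There were 3 libraries precipitated with an antibody against OTX2, 3 of input chromatin with no antibody, and 2 precipitated with normal goat IgG, since the third experiment had no IgG control. All groups shared strain, genotype, stage and tissue, so no library without OTX2 protein was compared. Dissected tissue mixes progenitors, neurons and other cells, and the lists do not say in which of them a site was bound. The lists hold no expression values, so the labelled tissue could not be checked against marker genes.

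FGF receptors are receptor tyrosine kinases at the cell surface. On binding an FGF they activate, among other routes, the ERK MAP kinase cascade, and in the embryonic forebrain FGF signals are known to pattern the rostral and ventral telencephalon and to keep progenitors dividing. Spry1 and Spry2 encode Sprouty proteins, which dampen signalling below receptor tyrosine kinases, and Dusp6 encodes a phosphatase that inactivates ERK. Transcription of these feedback genes is known to rise when the pathway is active, which is why they are often used as its readouts.

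The sequences just before the start sites of Fgfr2, Spry2 and Dusp6 are shown because these genes had an OTX2 peak centred within 5 kb of the gene position that was either shared between libraries or in the best-ranked 10% of its list. They are the 250 bases before the RefSeq start in GRCm38.p6, at chr7:130266809-130267058 (minus strand), chr14:105896820-105897069 (minus strand) and chr10:99262981-99263230 (plus strand), written 5′ to 3′. Capitals mark TAAT on either strand (TAAT or ATTA), the core that many homeodomain proteins contact.
Fgfr2: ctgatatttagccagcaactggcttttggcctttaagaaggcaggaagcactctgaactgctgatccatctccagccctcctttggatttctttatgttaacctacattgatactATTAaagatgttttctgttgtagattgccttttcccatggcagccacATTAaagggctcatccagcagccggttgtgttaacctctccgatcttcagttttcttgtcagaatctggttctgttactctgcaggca
Spry2: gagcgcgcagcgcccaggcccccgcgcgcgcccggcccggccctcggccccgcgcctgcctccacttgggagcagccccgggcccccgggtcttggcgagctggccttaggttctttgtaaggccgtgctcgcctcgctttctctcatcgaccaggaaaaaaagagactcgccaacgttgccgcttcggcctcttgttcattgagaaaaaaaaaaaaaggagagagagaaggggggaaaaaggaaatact
Dusp6: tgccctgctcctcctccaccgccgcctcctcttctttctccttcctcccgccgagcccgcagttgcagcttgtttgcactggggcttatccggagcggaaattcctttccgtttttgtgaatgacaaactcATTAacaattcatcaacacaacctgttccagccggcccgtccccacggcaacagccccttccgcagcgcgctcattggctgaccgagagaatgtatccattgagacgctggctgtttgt
The peaks were mapped in mm9 and these windows in GRCm38.p6, so whether a peak covers a window was not determined. The Fgfr2 gene is 104 kb long in GRCm38, so a peak near its gene position can lie far from its start. TAATCC on either strand, which contains TAAT and is the sequence that OTX2 and its bicoid-class relatives are known to prefer, occurred in 0 of these 3 windows and in none of those of Spry1 and Fgfr3 either, against 6.25% of all 32851 windows. TAAT on either strand occurred 2 times in the Fgfr2 window, 0 times in that of Spry2 and 1 time in that of Dusp6, and 54.9% of all windows held at least 1. The Spry2 and Dusp6 windows were rich in CG dinucleotides, with 23 and 16, against 2 in the Fgfr2 window and a median of 6 over all windows. These matches describe the letters only.

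The lists gave the position and the rank of each peak, with no height or fold, and sequencing depth is unknown. OTX2 replicate 1 had 1848 peaks, replicate 2 had 1298 and replicate 3 had 22325, and the 5 control lists had between 138 and 235. Replicate 3 stood apart by its length and its peak width, with a median of 827 bp against 191 and 182 bp in replicates 1 and 2, and the track names of that experiment hold an added tag, score1_pe05, which may mark other peak-calling settings. The labels do not explain it, so the larger number of replicate 3 peaks cannot be told apart from a different threshold. Results are therefore given with and without it. The ranks are the authors' own and order the peaks of 1 list only. Low numbers are called better-ranked here, which is an assumption, since what the rank orders by is not given.

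Each OTX2 library outnumbered each input library at the 3 receptor genes and at none of the 3 feedback genes. The same separation was found in 10.3% of 6413 fixed 400 kb tiles of the genome. Fgfr2 had 4, 4 and 15 peaks in OTX2 replicates 1, 2 and 3, against 0 in each of the 3 input and 2 IgG libraries. The mean was 7.67 ± 6.35 in OTX2 libraries and 0 ± 0 in input libraries (SD, n = 3 each), with an exact two-sided permutation p of 0.10, the smallest that 3 against 3 libraries allow. Fgfr1 had 2, 2 and 6 OTX2 peaks and Fgfr3 had 1, 1 and 7, again against 0 in every control library, each with an exact permutation p of 0.10. With the replicate number as a block, the exact permutation p at each of these 3 genes was 0.25, the smallest that 3 pairs allow. OTX2 and control libraries did not overlap at these 3 genes. At Fgfr3 this rested on low-ranked peaks, since with the better-ranked 50% of each list replicates 1 and 2 had no peak there (exact permutation p = 1.00).

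At the feedback genes the OTX2 and control libraries overlapped, because at least 1 OTX2 library had no peak there. Spry1 had 0, 1 and 8 peaks in OTX2 replicates 1, 2 and 3, against 0 in all 5 control libraries (exact two-sided permutation test of OTX2 against input, p = 0.40). Spry2 had 2, 0 and 6 OTX2 peaks, against 0 in all 5 control libraries (exact permutation p = 0.40). Dusp6 had 0, 0 and 9 OTX2 peaks, against 1 peak in input replicate 1 and 0 in the other 4 control libraries (exact permutation p = 1.00). Without replicate 3 the mean difference between OTX2 and input was 4 peaks at Fgfr2, 2 at Fgfr1, 1 at Fgfr3, 0.5 at Spry1, 1 at Spry2 and -0.5 at Dusp6, where its sign turned. The 6 p-values are unadjusted, and with 3 libraries a group none could pass 0.05.

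**Figure D1:**
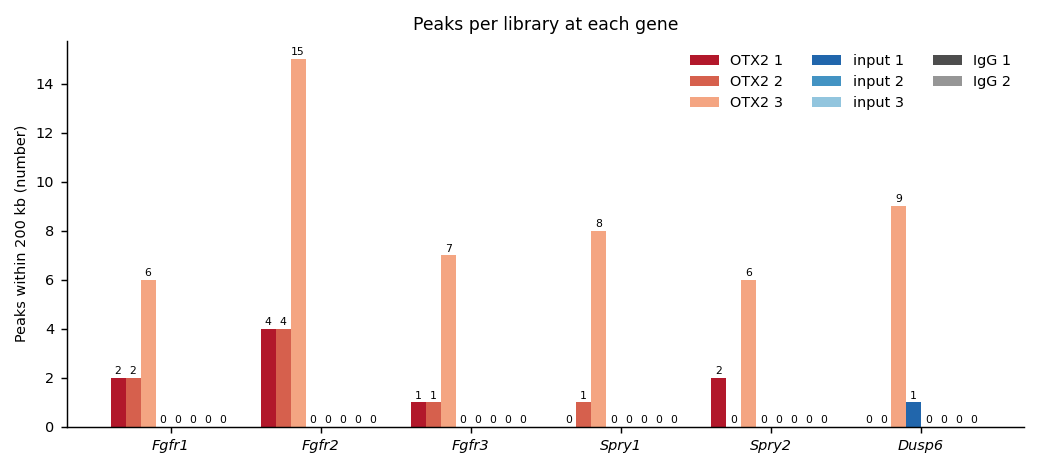
Number of peaks centred within 200 kb of each gene (vertical axis) in the 3 OTX2, 3 input and 2 IgG libraries (bars, with the number above each). OTX2 replicate 3 has the tallest bar at all 6 genes, replicates 1 and 2 have peaks at all 3 receptor genes, and input replicate 1 has the single control peak, at Dusp6.

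At least 1 peak was present at 4 of the 6 genes in replicate 1, at 4 in replicate 2 and at 6 in replicate 3, against 20.3%, 14.9% and 79.0% of tiles. Control peaks of any kind were present at 1 of the 6 genes, against 7.70% of tiles. Replicate 3 alone supplied 51 of the 68 OTX2 peaks at these genes, and its list was also the longest. Its counts of between 6 and 15 peaks within 400 kb stood against a median of 3 and a mean of 3.48 per tile over the genome. Tiles with at least 15 replicate 3 peaks, the number at Fgfr2, made up 0.998% of the total. At least 9 peaks, the number at Dusp6, occurred in 8.87% of tiles, and at least 6 peaks, the number at Fgfr1 and Spry2, in 22.7%. The tiles include gene deserts, whereas the 6 windows are centred on genes, so this background is a description and not a matched control.

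**Figure D2:**
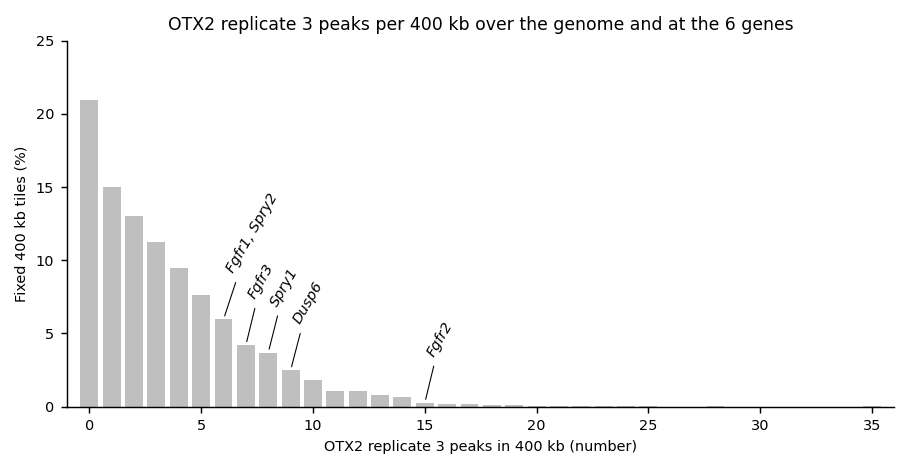
Percentage of fixed 400 kb tiles of the genome (vertical axis) by the number of OTX2 replicate 3 peaks centred in them (horizontal axis), with the numbers found at the 6 genes marked. Fgfr2, with 15 peaks, lies in the upper tail, and 0.998% of tiles have at least as many. The other 5 genes have between 6 and 9.

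Overlapping OTX2 peaks (at least 1 bp) were merged, and a merged interval seen in at least 2 OTX2 lists and touching no input or IgG peak was taken as an OTX2 region. The 6 genes held 52 merged intervals, of which 10 were regions, while over the genome 8.61% of 22629 merged intervals were regions. At least 1 region was found at 5 of the 6 genes and at least 2 regions at 3 of them, against 21.5% and 5.88% of 400 kb tiles. Of the 10 regions 8 lay at receptor genes and 2 at feedback genes. Only receptor genes among the 6 had regions found in all 3 OTX2 lists, namely 4 at Fgfr2 and 2 at Fgfr1, and over the genome 40.5% of regions were found in all 3. Without replicate 3 the regions were the 6 of Fgfr1 and Fgfr2. Without replicate 1 none was left at Spry2 and 1 at Fgfr3, and without replicate 2 none was left at Spry1 and 1 at Fgfr3. Of the other 42 intervals, 41 came from replicate 3 alone and 1 from replicate 1 alone. No OTX2 peak at these genes overlapped a control peak (0 of 68, which allows a share of up to 4.41% when the limit for a count of 0 is set at 3 counts, and up to 5.28% by the exact 95% interval), against 0.675% of all OTX2 peaks.

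**Figure D3:**
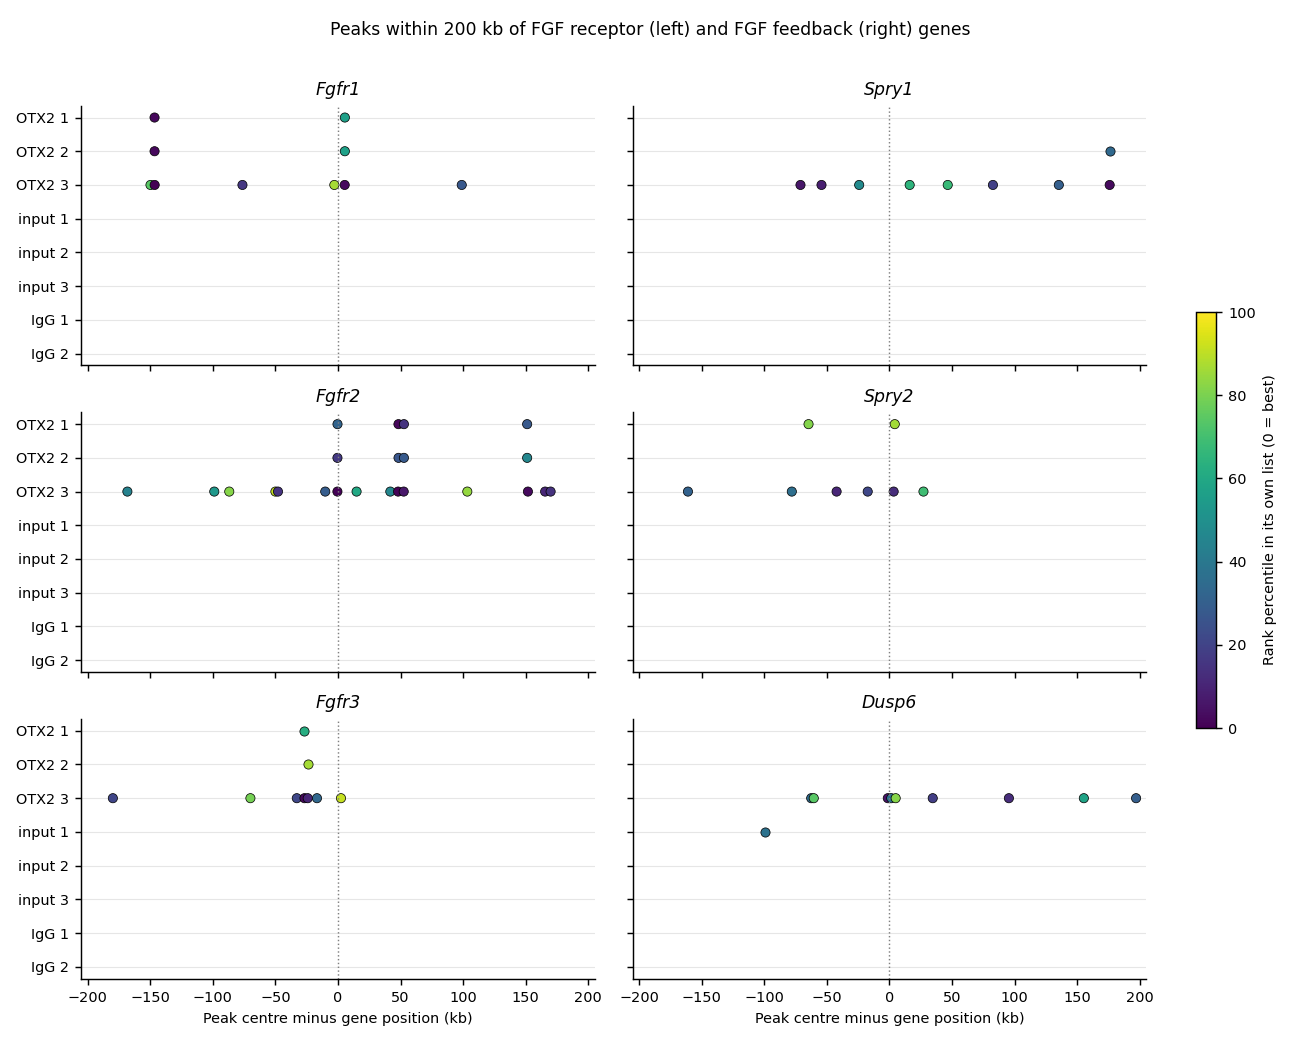
Position of every peak centre relative to the gene position (horizontal axis, kb, in genome coordinates with no regard to strand) in each of the 8 libraries (rows), for the 3 receptor genes at left and the 3 feedback genes at right, coloured by rank percentile within the library's own list (0 is best). Peaks of the 3 OTX2 libraries line up at 4 places at Fgfr2 and 2 at Fgfr1, while at Dusp6 only replicate 3 has OTX2 peaks.

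Fgfr1 encodes a receptor that is widely expressed in the early neural tube and acts with Fgfr2 and Fgfr3 in the telencephalon. Its first region, on chromosome 8 from 26502833 to 26504256, held the best-ranked peak at the 6 genes in replicates 2 and 3. It ranked 40 of 1848 in replicate 1, 28 of 1298 in replicate 2 and 29 of 22325 in replicate 3. The 3 peaks were 370, 337 and 1424 bp wide, and the centres in replicates 1 and 2 were 8.5 bp apart. This region lay 146 kb on the lower-coordinate side of the gene position, where the next protein-coding genes in the GRCm38 annotation are Gm39147, Tacc1 and Plekha2.

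The second region at Fgfr1 lay 5.34 kb on the higher-coordinate side of the gene position, from 26654621 to 26656066. It ranked 1041 in replicate 1, 737 in replicate 2 and 563 in replicate 3, so it stood past the middle of the shorter lists and near the top of the longest. The centres of replicates 1 and 2 were 8 bp apart there. The other 4 peaks at Fgfr1 were in replicate 3 alone and ranked between 3572 and 19315. Among them was the peak nearest to the gene position, 2.94 kb away and 699 bp wide, with the rank of 19315. At Fgfr1 the best-ranked peak was thus not the nearest, and both regions were present without replicate 3.

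Fgfr2 encodes a receptor whose splice forms differ in the FGFs they bind, and it had the most regions of the 6 genes. At least 4 regions were found in 0.639% of 400 kb tiles. All 4 Fgfr2 regions were in each of the 3 OTX2 lists. The region nearest to the gene position was centred 0.461 kb from it, on chromosome 7 from 137358527 to 137360552, and ranked 588, 218 and 137 in replicates 1, 2 and 3. It was the best-ranked Fgfr2 site in replicates 2 and 3.

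A pair of regions followed on the higher-coordinate side, centred 48.0 and 52.5 kb from the gene position and 4.5 kb apart. Fgfr2 lies on the minus strand, so higher coordinates lie toward its start and then beyond it. The first of the pair, from 137407079 to 137408914, ranked 36, 347 and 165 in replicates 1, 2 and 3, and was the best-ranked Fgfr2 site in replicate 1. The second, from 137411838 to 137413149, ranked 274, 363 and 1449. The fourth region, from 137510345 to 137513100, lay 152 kb from the gene position and ranked 511, 602 and 529. That distance exceeds the 104 kb length of the gene in GRCm38, so a position inside the gene would put this region beyond the start.

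Peak centres of replicates 1 and 2 lay 39, 61, 4 and 1.5 bp apart at the 4 Fgfr2 regions, in the order of their coordinates. Centres of replicate 3 lay between 26.5 and 622.5 bp from those of replicates 1 and 2 there. Over the 6 regions of Fgfr1 and Fgfr2 in which replicates 1 and 2 both had a peak, the median gap was 8.25 bp, against 46 bp over the 794 such regions of the genome. Replicate 3 peaks were much wider at these regions, between 1312 and 2756 bp at Fgfr2, against 173 to 495 bp in replicate 1 and 200 to 241 bp in replicate 2. The remaining 11 Fgfr2 peaks were in replicate 3 alone, with ranks between 2367 and 20257. The next protein-coding genes in GRCm38 are Ate1, Gm4275 and Nsmce4a on the higher-coordinate side and Wdr11, Plpp4 and Sec23ip on the lower-coordinate side.

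Fgfr3 encodes the third receptor, known in the brain for its expression in ventricular zone progenitors and later in astrocytes. Its 2 regions lay beside each other, with midpoints 2.64 kb apart, on the lower-coordinate side of the gene position. Replicates 1 and 2 each had a single peak at Fgfr3, and they were not at the same region. The region on chromosome 5 from 34037490 to 34038914, 26.8 kb from the gene position, ranked 1153 in replicate 1 and 416 in replicate 3. The neighbouring region from 34040396 to 34041280, 24.2 kb away, ranked 1125 of 1298 in replicate 2 and 2220 in replicate 3.

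Replicate 3 had 5 further peaks at Fgfr3, with ranks between 4685 and 20392. The peak nearest to the Fgfr3 position, 2.38 kb away and 511 bp wide, had the last of these ranks. Of the 7 replicate 3 peaks, 6 lay on the lower-coordinate side, where the next protein-coding genes in GRCm38 are Tacc3, Tmem129 and Slbp. Letm1, Nsd2 and Gm52782 follow on the other side. Without replicate 3 no region was left at Fgfr3, since replicates 1 and 2 shared none.

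Spry1 had 1 region, at the far end of its window. It lay on chromosome 3 from 37715132 to 37716680, 176 kb on the higher-coordinate side of the gene position, and ranked 441 of 1298 in replicate 2 and 573 of 22325 in replicate 3, with centres 16.5 bp apart. Replicate 1 had no peak anywhere in the Spry1 window. In replicate 3 a further pair of peaks ranked within the best 10% of the list, 1325 at 71.1 kb and 1902 at 54.3 kb on the lower-coordinate side, and neither was overlapped in replicates 1 or 2. The nearest peak, 16.1 kb from the position, ranked 14472.

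The genes next to Spry1 on the lower-coordinate side in GRCm38 are, nearest first, Spata5, Nudt6 and Fgf2, the last a ligand gene of the same pathway. On the higher-coordinate side, where the region lay, the order is Gm5148, Ankrd50 and Fat4. Which of these genes a peak lies nearest to was not determined in mm9.

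Spry2 had 1 region, close to the gene position. It lay on chromosome 14 from 106294243 to 106298441 with its midpoint 3.34 kb on the higher-coordinate side, which is toward the start of this minus-strand gene, and ranked 1594 of 1848 in replicate 1 and 2841 of 22325 in replicate 3. The replicate 3 peak there was 4199 bp wide, the widest at the 6 genes, whereas the replicate 1 peak was 164 bp wide and its centre lay 886.5 bp from that of replicate 3. Replicate 2 had no peak at Spry2. The other peak of replicate 1, ranked 1507 and 64.7 kb away on the lower-coordinate side, was the single peak of replicates 1 and 2 at the 6 genes that no other OTX2 list overlapped. At the 6 genes another OTX2 list overlapped 8 of 9 replicate 1 peaks and 8 of 8 replicate 2 peaks. The shares over the whole lists were near these, 89.0% and 93.6%. The best-ranked replicate 3 peak at Spry2 ranked 2387, 42.2 kb away.

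Dusp6 had no region, although 9 replicate 3 peaks lay in its window. The best-ranked of them was also the nearest to the gene position, 1.33 kb away on chromosome 10 from 98724894 to 98726448, with rank 1185 and a width of 1555 bp. Another pair of peaks lay within 10 kb, ranked 8520 at 1.39 kb and 18260 at 4.96 kb. Neither replicate 1 nor replicate 2 had a peak at Dusp6 (0 of 9 replicate 3 peaks overlapped, which allows a share of up to 33.3% at 3 counts and 33.6% by the exact 95% interval). The input peak at Dusp6 was 118 bp wide, ranked 52 of 138, lay 99.4 kb from the position and touched no OTX2 peak.

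Across the 6 genes, 10 of 51 replicate 3 peaks were overlapped by a peak of replicate 1 or 2 (19.6%, exact Clopper-Pearson 95% interval 9.82 to 33.1%), against 8.83% of the whole replicate 3 list. With every peak reduced to 200 bp at its centre the share was 6 of 51 (11.8%), against 6.39% of the whole list. The share was 8 of 28 at receptor genes (28.6%, 13.2 to 48.7%) and 2 of 23 at feedback genes (8.70%, 1.07 to 28.0%). These intervals overlap and cover counting error only, and peaks of 1 list are not independent replicates.

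Rank went with overlap at these genes as it did in the whole list. Of the 51 replicate 3 peaks, 12 were in the best-ranked 10% of the list (23.5%, 12.8 to 37.5%), and 9 of these 12 were overlapped in replicates 1 or 2 (75.0%, 42.8 to 94.5%), against 64.6% of all peaks in that class. Outside it 1 of 39 was overlapped (2.56%, 0.065 to 13.5%), the Spry2 region, against 2.64% of all such peaks. Within each class the share was therefore near that of the whole list. All 8 well-ranked replicate 3 peaks at receptor genes were overlapped (95% interval 63.1 to 100%), and 1 of 4 at feedback genes (0.631 to 80.6%). The 3 well-ranked peaks without overlap were the pair at Spry1 and the nearest peak at Dusp6. The difference between receptor and feedback genes was not tested.

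**Figure D4:**
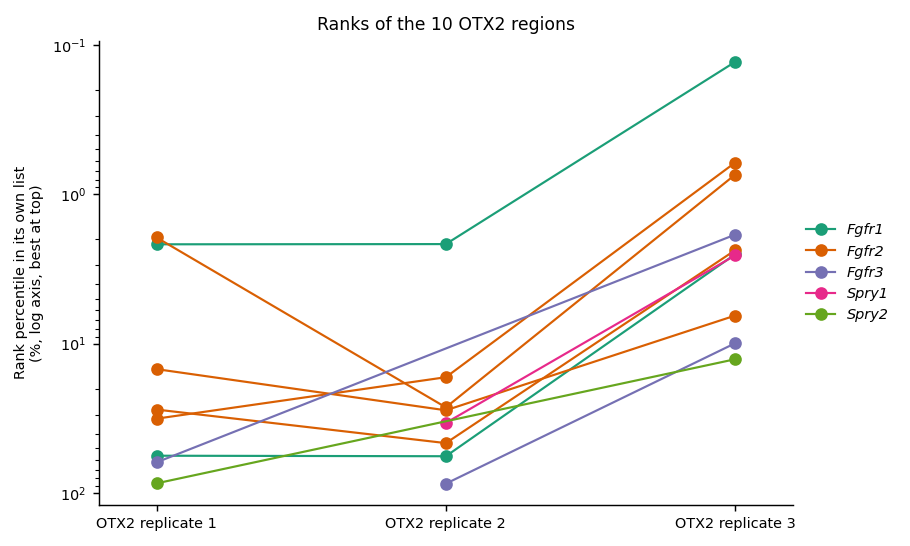
Rank percentile of each of the 10 OTX2 regions in the lists of OTX2 replicates 1, 2 and 3 (vertical axis, log scale, best at the top), with a line joining the values of 1 region and colours for the genes. Lists differ in length, so only positions within a column compare regions, and the Fgfr1 region 146 kb from the gene position leads in replicates 2 and 3.

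Peaks at these genes stood somewhat better in their lists than the middle, with median rank percentiles of 31.8, 31.0 and 28.9 in replicates 1, 2 and 3. Their median widths were 213, 212 and 1090 bp, against 191, 182 and 827 bp over the whole lists. Cutting all OTX2 lists to the best-ranked 1298 peaks, the length of the shortest, left 7, 8 and 8 peaks at the 6 genes in replicates 1, 2 and 3. Fgfr2 then kept 4, 4 and 3 peaks, Fgfr1 2 in each library, Fgfr3 1 in each, Spry1 0, 1 and 1, Spry2 0 in each and Dusp6 0, 0 and 1. The replicate 2 list, which has this length uncut, had a mean of 0.202 and a median of 0 peaks per 400 kb tile over the genome. At equal list length the 3 libraries thus differed by at most 1 peak at any of the 6 genes. How often tiles differ as little was not computed. These counts were small, and at Fgfr3 the single peaks of replicates 1 and 2 lay at different regions.

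Peaks lay on either side of the 200 kb limit. Those just inside it were a replicate 3 peak 197 kb from Dusp6 with rank 6684 and one 180 kb from Fgfr3 with rank 4685. Just outside lay a replicate 3 peak 214 kb from Fgfr3 with rank 17415, and 217 kb from Spry2 a site seen both in replicate 3, with rank 1346, and in replicate 1, with rank 999.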

How the data were processed

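Peak lists of 8 libraries were used as deposited by the authors, 1 BED list per library in mm9. Per the file headers, each list carries the name of 1 library, so peaks were not called on pooled samples. BWA, MACS 1.4 and mm9 are named in the submitters' processing notes. Not given in the sources used here are the control, the threshold and what the rank orders by. Coordinates are written 1-based. Groups and replicate numbers came from sample titles. The series' design text calls the experiments independent, but whether they used separate litters is not stated. The permutation p-values therefore compare these libraries only and do not measure their spread.

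Counts, overlaps, exact permutation tests and Clopper-Pearson 95% intervals were computed with Python 3.11.15, numpy 2.4.6 and scipy 1.17.1, and the overlap code was tested on simulated data. Tiles of 400 kb ran from the lowest to the highest peak of chromosomes 1 to 19 and X. Neighbouring genes (the nearest 3 protein-coding genes on each side) and promoters are from RefSeq GRCm38.p6, and promoters were matched for 5 of 6 genes, all but Fgfr1. No coordinates were converted between builds, so distances to start sites, exons and introns, and peaks at other FGF pathway genes, were not analysed here. All 6 genes and every region at them are described. They and the rules were chosen with earlier results of these data known. The TAAT search was added after seeing the promoters.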

Additional observations from a re-analysis of the deposited data

How the results depend on the processing

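The OTX2 region counts depended on single libraries and on the window. Leaving out 1 replicate at a time gave between 6 and 8 regions over the 6 genes, instead of 10. The range was 4 to 4 at Fgfr2, 2 to 2 at Fgfr1, 0 to 1 at Fgfr3, Spry1 and Spry2, and 0 to 0 at Dusp6, and without replicate 3 only the 6 regions of Fgfr1 and Fgfr2 were left. Requiring all 3 lists left the same number, with 0 at Fgfr3, Spry1 and Spry2. Accepting any 1 list gave 6, 15, 7, 8, 7 and 9 intervals at Fgfr1, Fgfr2, Fgfr3, Spry1, Spry2 and Dusp6. Within 100 kb, Fgfr1 had 1 region, Fgfr2 3 and Spry1 0, and within 50 kb Fgfr1 had 1, Fgfr2 2 and Spry1 0. With the better-ranked 50% of each list, Fgfr1 had 1 region and Fgfr3 and Spry2 had 0. Asking for 50% of the shorter peak to be shared, or keeping control peaks, left 10. Neither setting could have changed the count. Each replicate 1 or 2 peak in a region lay wholly inside its replicate 3 peak, and no OTX2 peak at these genes overlapped a control peak.

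The difference in peak number between OTX2 and input stayed positive at the 3 receptor genes and Spry1 in every alternative run, but with the better-ranked 50% of each list replicates 1 and 2 had no peak at Fgfr3 and the exact p there was 1.00 instead of 0.10. Leaving out 1 replicate gave 2 to 4 peaks at Fgfr1, 4 to 9.5 at Fgfr2, 1 to 4 at Fgfr3, 0.5 to 4.5 at Spry1, 1 to 4 at Spry2 and -0.5 to 4.5 at Dusp6, where the sign turned without replicate 3. In replicates 1 and 2 alone, the experiments that have IgG, OTX2 minus IgG was 0 at Dusp6, where it was 3 with all 3 OTX2 libraries kept, an alternative chosen after seeing the data. With OTX2 lists of equal length the difference from input was 0 at Spry2 and at Dusp6, since fewer OTX2 peaks entered. The titles number replicates alike in all groups. Whether same-numbered libraries varied together at these genes could not be computed, since input counts were 0 at 5 of the 6 genes. Over whole lists, replicate 3 was the longest both for OTX2 (22325 peaks) and for input (235 peaks). Whether counts over the tiles varied together was not tested. With the replicate number as a block the differences of 3.33, 7.67 and 3 at Fgfr1, Fgfr2 and Fgfr3 had an exact p of 0.25, the smallest that 3 pairs allow, those of 3 and 2.67 at Spry1 and Spry2 a p of 0.50, and that of 2.67 at Dusp6 a p of 1.00. No design here could pass 0.05, so unchanged calls say nothing about stability. The share of replicate 3 peaks overlapped in replicates 1 or 2 was 11.8% with every peak reduced to 200 bp at its centre, and 18.4% and 24.0% within 100 and 50 kb. Read depth is unknown, so how far it limits replicates 1 and 2 was not tested.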
